A study of Mus musculus with 2 samples.

Results

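Axon guidance ligands and their receptors were described in CMT167R cells, a derivative of the mouse lung carcinoma line CMT167 that the labels call resistant to anti-PD1. The genes were taken by name from the protein-coding rows of the deposited table: Eph receptors, ephrins, semaphorins, plexins, neuropilins, netrins, Slits and Robos. This gave 63 genes of 22046 protein-coding genes and 54532 genes in all. The design had 1 library from untreated cells (CON) and 1 from cells kept for 24 h with 50 nM of an agent named PKCi, whose identity the labels do not give. Both groups are the same resistant cells, and no library of the parental line was used here. The libraries held 16090186 and 16071153 gene counts, and levels are counts scaled to a total of 1000000 (CPM), so that 16.1 counts made 1 CPM. A single library per group leaves every difference without a replicate check and without a test. The 95% intervals of ratios cover counting error only, and PCR copies of a molecule cannot be told from separate molecules.

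Guidance molecules were named for steering growing axons, and epithelial and tumour cells use the same proteins for contact, repulsion and migration. Ephrins are held at the cell surface and signal to Eph receptor tyrosine kinases on the neighbouring cell, with signalling back into the ephrin-bearing cell as well. Semaphorins of class 3 are secreted and mostly need a neuropilin to engage plexins, while classes 4 to 7 are anchored in the membrane and mostly bind plexins directly. Netrins act through DCC, neogenin and UNC5 receptors, and Slits through Robo receptors.

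The tissue named in the labels was checked first, since 1 of their protocols speaks of retina. The retina markers Crx, Nrl and Rpe65 had no count in either library, and Pax6 had 1 count untreated and 0 with PKCi. Of 10 neuronal markers 7 had no count in either library, among them Tubb3, Rbfox3 and Snap25. Map2, a microtubule-associated protein, gave nearly all neuronal marker counts, with 344 untreated and 150 with PKCi. Of 11 lung epithelial markers, the keratin genes Krt8 (933 and 1182 CPM), Krt18 (643 and 765 CPM) and Krt7 (43.5 and 29.8 CPM) were measured. Epcam was low at 3.48 and 6.28 CPM, as was Cdh1 at 2.92 and 3.36 CPM, and the other six, among them Nkx2-1, Sftpc and Scgb1a1, had no count. Summed endothelial markers were at 3.36 and 3.05 CPM, with 2 of 8 at 0 in both libraries. Summed fibroblast markers were at 101 and 38.3 CPM, with 1 of 8 at 0 in both. Most of that sum was Pdgfrb (1422 and 392 counts), and Col1a1 was lower too, while Dcn (1 and 17 counts), Col3a1 (14 and 38) and Pdgfra (43 and 97) were higher with PKCi. The median log2 ratio of the 5 measured fibroblast markers was 0.85. Leukocyte markers summed to 10.6 and 6.72 CPM with 5 of 8 at 0 in both libraries, and of the 2 measured ones Lyz2 was lower (133 and 50 counts) and Cd68 higher (38 and 57). The part of these markers in the differences below was not tested.

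Guidance genes stood on both sides of equality, with Plxnd1, Sema4b and Sema6a at the upper end and Sema3a, Epha4 and Sema3e at the lower end. Of the 63 genes, 41 had at least 1 CPM in at least 1 library (here called measured), 40 of them in both libraries. On the log2(CPM + 1) scale, 8 of the 41 were higher with PKCi by 2-fold or more and 4 were lower by that size. These 12 made up 29.3% of the measured guidance genes, beside 11.7% of all 12273 measured genes. By direction, 19.5% were higher and 9.76% lower, beside 6.53% and 5.13% of all measured genes. With the plain ratio of CPM, an alternative chosen after the data were seen, 9 genes were higher and 7 lower, or 39.0% beside 17.3%. The median log2 ratio was 0.17, against −0.01 over all measured genes. Of the 41 ratios, 22 were above 0 and 19 below, beside 6040 and 6233 of all measured genes. The median size of the log2 ratio, without its sign, was 0.78 for guidance genes and 0.40 for all measured genes. In a bulk library, fewer cells with a transcript and less of it per cell cannot be told apart.

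**Figure D1:**
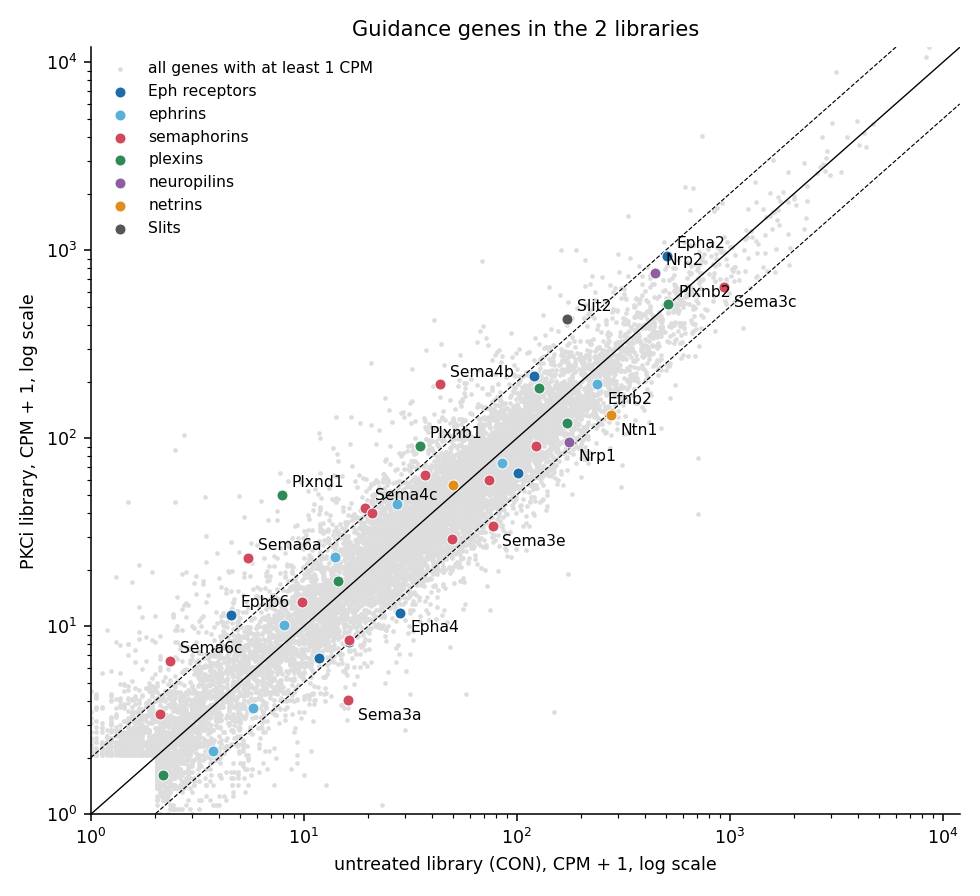
Level of each gene in the untreated library (horizontal axis) and in the PKCi library (vertical axis), both as CPM + 1 on log scales, with 1 library per group. Grey points are the 12273 measured genes, coloured points the 41 measured guidance genes by family, the solid line marks equal levels and the dashed lines a 2-fold difference. Plxnd1 and Sema4b lie above the upper dashed line and Sema3a below the lower one.

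The 8 higher genes were Plxnd1, Sema4b, Sema6a, Sema6c, Plxnb1, Ephb6, Slit2 and Sema4c, in order of log2 ratio from 2.66 to 1.14. The 4 lower genes were Sema3a, Epha4, Sema3e and Ntn1, and the last 3 had log2 ratios of −1.27, −1.18 and −1.06. The other 22 of the 63 guidance genes were under 1 CPM in both libraries. No count was found in either library for Epha8, Epha10, Ephb1, Sema5b, Plxna4, Plxnb3, Slit3, Robo2 and Robo4, where a count of 0 allows a level of up to 0.186 CPM untreated and 0.187 CPM with PKCi. The remaining 13, Epha1, Epha3, Epha5, Epha6, Efna2, Sema3g, Sema4f, Sema4g, Sema6d, Ntn5, Slit1, Robo1 and Robo3, had few counts. Of these, Sema3g, a secreted semaphorin, had 14 and 0 counts. The 95% counting interval of its ratio starts at 3.31-fold lower, and with the 0 set to a floor of 3 counts the ratio is 4.66-fold. Slit1, a secreted Slit, had 0 and 7 counts, with an interval that starts at 1.44-fold higher and a ratio of 2.34-fold with that floor.

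Promoter sequences are shown for the genes with the most extreme ratios in each direction among those with a window near the gene start, and for the 2-fold genes whose window held a searched motif. They are the 250 bases before the RefSeq transcript start (assembly GRCm38.p6), for starts within 1000 bases of the gene start in the deposited table. RefSeq windows were matched by symbol for 55 of the 63 genes, and 51 of these met that limit. The other four, Plxna2, Robo1, Sema4d and Sema3a, which has the lowest ratio, did not and are not printed. Plxnd1 lies at chr6:115995006-115995255 on the minus strand, Sema4b at chr7:80186620-80186869 on the plus strand and Plxnb1 at chr9:109095186-109095435 on the plus strand. Sema4c lies at chr1:36558382-36558631 on the minus strand, Sema3e at chr5:14025026-14025275 on the plus strand and Epha4 at chr1:77515089-77515338 on the minus strand. Capitals mark the letters GGAATG, the core read by TEAD factors, or TGANTCA, the AP-1 core, on either strand, and no marked site overlaps another.
Plxnd1: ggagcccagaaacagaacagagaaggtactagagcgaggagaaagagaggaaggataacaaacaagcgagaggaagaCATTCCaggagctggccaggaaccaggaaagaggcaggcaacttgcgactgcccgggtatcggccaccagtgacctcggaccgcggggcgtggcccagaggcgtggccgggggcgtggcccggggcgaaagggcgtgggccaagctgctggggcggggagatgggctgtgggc
Sema4b: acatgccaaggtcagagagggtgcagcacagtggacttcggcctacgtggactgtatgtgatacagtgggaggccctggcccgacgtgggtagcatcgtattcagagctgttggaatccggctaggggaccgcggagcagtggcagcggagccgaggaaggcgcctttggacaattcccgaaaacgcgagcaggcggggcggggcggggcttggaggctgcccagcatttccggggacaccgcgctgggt
Plxnb1: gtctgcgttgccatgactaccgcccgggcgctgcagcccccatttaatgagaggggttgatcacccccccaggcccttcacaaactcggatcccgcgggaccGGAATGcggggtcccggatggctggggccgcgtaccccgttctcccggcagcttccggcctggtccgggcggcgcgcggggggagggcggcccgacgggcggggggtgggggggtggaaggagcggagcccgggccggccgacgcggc
Sema4c: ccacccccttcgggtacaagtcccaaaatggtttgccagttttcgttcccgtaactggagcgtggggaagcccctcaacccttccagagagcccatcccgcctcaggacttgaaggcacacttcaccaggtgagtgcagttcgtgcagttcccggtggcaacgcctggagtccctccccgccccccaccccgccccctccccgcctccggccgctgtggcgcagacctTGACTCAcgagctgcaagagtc
Sema3e: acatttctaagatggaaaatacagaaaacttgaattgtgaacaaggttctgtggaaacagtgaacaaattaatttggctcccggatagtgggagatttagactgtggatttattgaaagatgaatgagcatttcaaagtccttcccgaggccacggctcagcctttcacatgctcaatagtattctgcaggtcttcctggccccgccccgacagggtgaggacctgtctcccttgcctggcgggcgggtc
Epha4: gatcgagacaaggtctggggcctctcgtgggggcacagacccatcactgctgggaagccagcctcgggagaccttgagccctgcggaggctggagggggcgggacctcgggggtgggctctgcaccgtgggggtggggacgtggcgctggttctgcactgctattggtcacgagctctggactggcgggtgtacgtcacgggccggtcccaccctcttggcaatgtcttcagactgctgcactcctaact

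The Plxnd1 window held GGAATG on the opposite strand, printed as CATTCC, from position −173 to −168 before the start, and the Plxnb1 window held it from −148 to −143. The Sema4c window held TGACTCA from −22 to −16, and the Sema4b, Sema3e and Epha4 windows held neither. Searched over 300 bases (250 before and 50 after the start) in all 55 matched genes, the 4 far windows included, GGAATG stood in 6 guidance gene windows (10.9%) and in 14.7% of all 32851 RefSeq windows. TGANTCA stood in 1 of 55 (1.82%) and in 7.81% of all. Each guidance gene gave 1 window, the nearest to its deposited start, while the RefSeq total can hold several windows per gene. Besides Plxnd1 and Plxnb1, GGAATG stood in Epha2 and Efnb2, both under 2-fold, and in Epha1 and Epha3, both under 1 CPM. The windows of the higher genes Slit2, Ephb6 and Sema6c held neither motif. Guidance gene windows were richer in G and C, with a median of 64.7% beside 52.7% over all windows. A match describes these letters only, and these data do not measure binding.

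Among Eph receptors, the abundant Epha2 and Ephb4 were higher with PKCi, while Epha4, Epha7, Ephb2 and Ephb3 were lower. Epha2, a receptor prominent in epithelia and carcinomas, had 8126 counts untreated and 15033 with PKCi, or 505 and 935 CPM. This was 1.85-fold higher (95% interval 1.80 to 1.90), and Epha2 moved from rank 273 to rank 94 of all genes by counts. Per kilobase of listed length it stood at 108 and 200.1 CPM per kb and gave 72.15% and 77.8% of the summed level of the 14 Eph genes. Ephb4, the receptor that prefers ephrin-B2, was at 119.9 and 213 CPM (1.77-fold higher, 95% interval 1.68 to 1.88). Per length it was second in the family in each library, at 25.9 and 45.9 CPM per kb. Both of the leading receptors therefore had higher levels in the PKCi library, each short of 2-fold.

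Epha4, which binds ephrins of both classes, had 441 and 173 counts (27.4 and 10.8 CPM), 2.55-fold lower with PKCi (95% interval 2.13 to 3.05). Epha7 had 174 and 93 counts and was 1.87-fold lower (95% interval 1.44 to 2.43). Ephb3 had 247 and 116 counts, a plain ratio of 2.13-fold lower (95% interval 1.70 to 2.68) whose log2(CPM + 1) ratio of −0.99 just missed the 2-fold size. Ephb2, next after Ephb4 by level per length in both libraries, was at 100.1 and 64.65 CPM (1.55-fold lower, 95% interval 1.43 to 1.68). Against these, Ephb6, a family member without kinase activity, had 57 and 168 counts, 2.95-fold higher (95% interval 2.17 to 4.06). The level of Epha2 per length was 31.8 times that of Epha4 untreated and 149.7 times with PKCi. Summed over the family, levels per length were 149.8 untreated and 257 CPM per kb with PKCi, a gap made largely by Epha2.

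On the log2(CPM + 1) scale 0 of 7 measured ephrins were 2-fold higher or lower, beside 11.7% of all measured genes. With 7 genes, that count does not set the family apart. Genes of the ephrin-A cluster on chromosome 3 differed in direction. Efnb2, a transmembrane ephrin, was the most abundant per length at 34.8 CPM per kb untreated and 28.1 with PKCi. Its 3833 and 3091 counts made it 1.24-fold lower (95% interval 1.18 to 1.30). The level of Efnb2 per length was 1.34 times that of its receptor Ephb4 untreated and 0.612 times with PKCi, so the order of the 2 genes was reversed. Efna5, a lipid-anchored ephrin, was nearest to equality in the family, at 84.2 and 73.0 CPM (1.15-fold lower, 95% interval 1.07 to 1.25).

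Efna1, a major ligand of Epha2, had 427 and 698 counts, 1.64-fold higher with PKCi (95% interval 1.45 to 1.85). Its neighbour Efna4 had 210 and 358 counts, 1.71-fold higher (95% interval 1.44 to 2.03). Efna3 lies between them, 32.8 kb from Efna1 and 10.4 kb from Efna4 with 0 protein-coding genes in either gap, and had 77 and 43 counts. It was thus 1.79-fold lower (95% interval 1.22 to 2.66) between a pair of higher neighbours. An antisense transcript over Efna3, Gm15998, had 5 and 10 counts. The strand setting of the counting is not given in the sources used here, so those reads and Efna3's cannot be told apart. Efnb1 was at 7.09 and 9.15 CPM, and Efnb3, with 44 and 19 counts, had a plain ratio of 2.31-fold lower (95% interval 1.32 to 4.19) at a log2(CPM + 1) ratio of −0.78.

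Semaphorins differed by class: secreted class 3 genes were mostly lower with PKCi, and membrane-anchored genes of classes 4 to 7 mostly higher. Of 6 measured class 3 genes 5 were below a log2 ratio of 0 and 1 above, with a median of −0.76. Of 9 measured genes of classes 4 to 7, 7 were above 0 and 2 below, with a median of 0.94. Over all 12273 measured genes, 6040 were above 0 and 6233 below. The split into class 3 and classes 4 to 7 was not set in advance, and the difference between the classes was not tested. Summed levels per length were 173.9 and 124 CPM per kb for class 3, and 31.1 and 69.1 CPM per kb for classes 4 to 7.

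Sema3c dominated the family in both libraries. This secreted semaphorin, which promotes migration in several settings, had 15111 and 10169 counts (939 and 633 CPM) and ranked 92 and 182 among all genes. It was 1.48-fold lower with PKCi (95% interval 1.45 to 1.52) and gave 64.2% and 46.0% of the summed semaphorin level per length. Sema3a, the classic growth cone repellent, had 244 and 49 counts, which is 4.97-fold lower (95% interval 3.65 to 6.91). Its log2 ratio was −1.997 on the CPM + 1 scale and −1.41 with TPM scaling and 1 TPM added. Sema3e, the ligand of plexin D1, had 1225 and 531 counts and was 2.30-fold lower (95% interval 2.08 to 2.56). Sema3d had 245 and 119 counts, a plain ratio of 2.06-fold lower (95% interval 1.65 to 2.58) that stayed under the 2-fold size with the pseudocount, at −0.95. Each of these 4 genes was lower in the PKCi library.

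The same 4 genes share chromosome 5. Sema3d (12383385 to 12588948), Sema3a (13125414 to 13602565) and Sema3e (14025276 to 14256689) follow one another on the plus strand in the deposited GRCm38 coordinates. The gap from Sema3d to Sema3a holds 0 protein-coding genes over 536 kb, and that from Sema3a to Sema3e holds 1, Speer3, over 423 kb. Sema3c lies further along, from 17574281 to 17730268. The median log2 ratio of the 4 was −1.06, in a grouping that was not set in advance. The other measured guidance genes on chromosome 5, Slit2 and Ephb4, were higher with PKCi, at log2 ratios of 1.32 and 0.82. The class 3 pair on chromosome 9, Sema3b and Sema3f, lies 72.3 kb apart and differed in opposite directions. Sema3b had 578 and 1004 counts (1.74-fold higher, 95% interval 1.57 to 1.93) and was the only measured class 3 gene above 0, while Sema3f had 1973 and 1439 counts (1.37-fold lower, 95% interval 1.28 to 1.47). Both encode secreted ligands that bind neuropilin 2.

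Sema4b had the largest difference in level per length among the semaphorins that were higher with PKCi. This transmembrane class 4 gene on chromosome 7 (80186841 to 80226527) had 684 counts untreated and 3089 with PKCi, or 42.5 and 192 CPM. It was 4.52-fold higher (95% interval 4.16 to 4.92), and its share of the summed semaphorin level per length was 3.67% and 17.7%, which put it next after Sema3c in the PKCi library. Sema4c, a ligand of plexin B2, had 296 and 672 counts and was 2.27-fold higher (95% interval 1.98 to 2.61). Sema4a had 18 and 39 counts, 2.17-fold higher by the plain ratio with a wide interval of 1.21 to 4.03. Sema4d, the ligand of plexin B1, differed the other way within class 4, with 785 and 454 counts (1.73-fold lower, 95% interval 1.54 to 1.94).

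Class 6 genes, transmembrane ligands of class A plexins, were all above 0 where measured, from low levels. Sema6a had 72 and 357 counts, 4.96-fold higher (95% interval 3.84 to 6.49). Sema6c had 22 and 89 counts, 4.05-fold higher (95% interval 2.52 to 6.79), and Sema6b had 142 and 200 counts, 1.41-fold higher (95% interval 1.13 to 1.76). Sema6a and Sema6c were past 2-fold and Sema6b was not. Sema7a, which is tethered by a lipid anchor, was at 19.8 and 39.1 CPM (1.97-fold higher, 95% interval 1.72 to 2.26), just short of 2-fold. Sema5a, a class 5 gene with thrombospondin repeats, was nearest to equality in the family, at 73.0 and 59.0 CPM (1.24-fold lower).

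**Figure D2:**
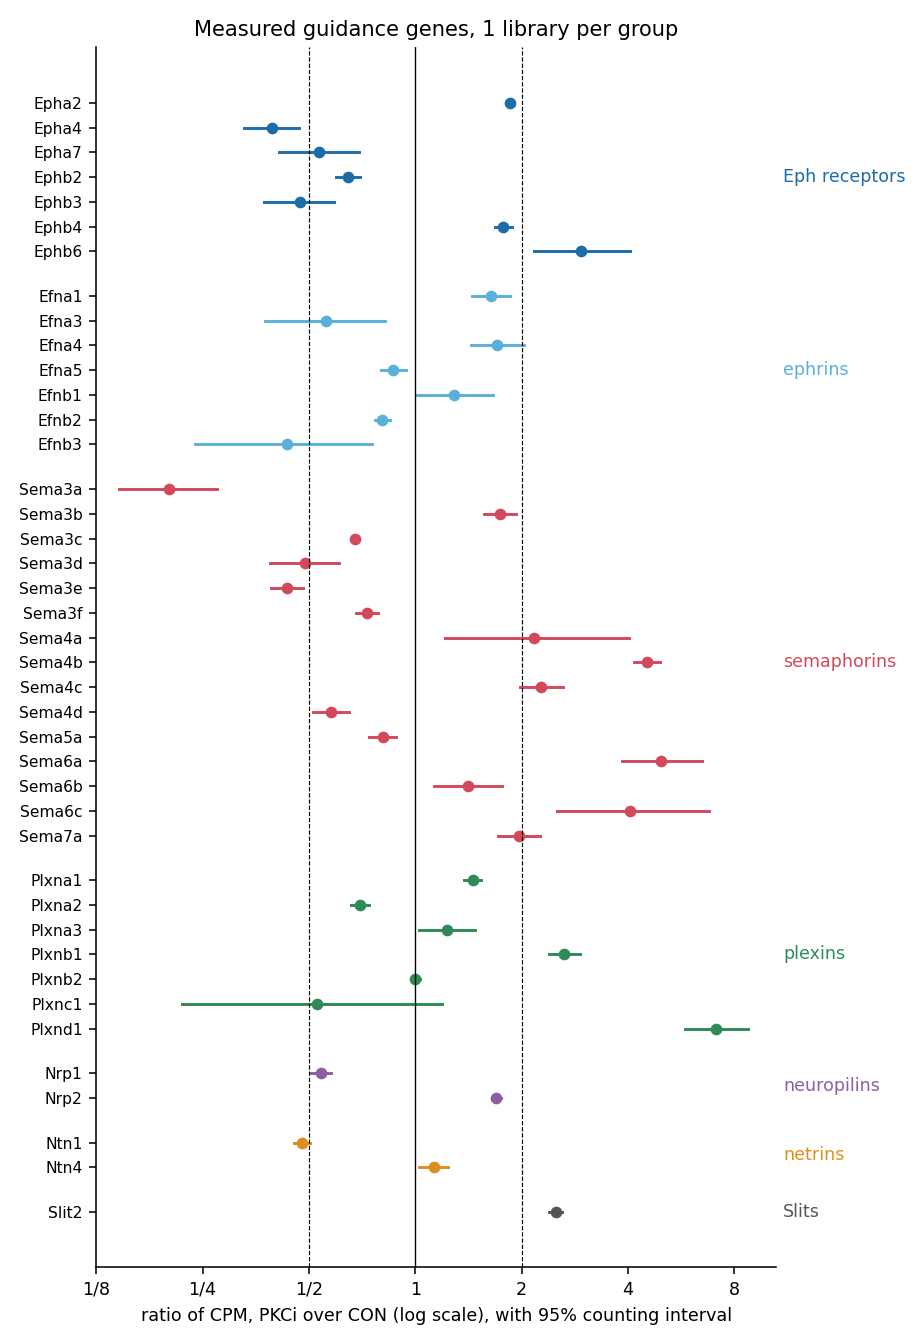
Ratio of CPM in the PKCi library over the untreated library for the 41 measured guidance genes, on a log scale, grouped and coloured by family. Points are the ratios of 1 library per group, bars the 95% counting intervals, the solid line marks a ratio of 1 and the dashed lines 2-fold either way. Class 3 semaphorins other than Sema3b lie left of 1, and Plxnd1 lies furthest to the right.

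Plexin D1 had the highest ratio of all guidance genes, and plexin B2 the one nearest to 1. Plxnd1 (chromosome 6, 115954811 to 115995005, minus strand), a receptor known from vascular patterning, had 111 counts untreated and 788 with PKCi. At 6.90 and 49.0 CPM it was 7.11-fold higher (95% interval 5.82 to 8.75). Of 8 endothelial markers, Eng had 44 and 29 counts, Tek 2 and 9, and the other six at most 4 in either library. Plxnb1, the receptor of Sema4d, had 549 and 1449 counts, 2.64-fold higher (95% interval 2.39 to 2.92). Plxnb2, the most abundant plexin per length at 66.5 and 66.6 CPM per kb, had 8263 and 8257 counts, a ratio of 1.00 (95% interval 0.970 to 1.03). Its share of the summed plexin level was 68.7% and 59.3%.

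Class A plexins, the signalling partners of neuropilins, differed in direction. Plxna1 had 2038 and 2962 counts (1.46-fold higher, 95% interval 1.37 to 1.54), and Plxna2 had 2765 and 1925 counts (1.43-fold lower, 95% interval 1.35 to 1.52). Plxna1 stood at 1.398 times the level of Plxna2 per length untreated and 2.92 times with PKCi. The untreated order rests on the listed lengths of 9054 and 17174 bases, since Plxna2 had more counts. Plxna3 was at 13.4 and 16.5 CPM. Plxnc1, the plexin that binds Sema7a, had 19 and 10 counts, and a difference was not detectable at this depth (ratio 0.527, 95% interval 0.219 to 1.19).

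The 2 neuropilins stood on opposite sides of equality. Nrp2, which serves class 3 semaphorins such as Sema3f and also lymphatic growth factors, had 7172 and 12144 counts (446 and 756 CPM), 1.70-fold higher with PKCi (95% interval 1.65 to 1.75). Nrp1, the main receptor subunit for Sema3a, had 2818 and 1523 counts (175 and 94.8 CPM), 1.85-fold lower (95% interval 1.74 to 1.97). Nrp2 was the more abundant per length in both libraries, 2.10 times Nrp1 untreated and 6.59 times with PKCi. Neither passed 2-fold alone.

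**Figure D3:**
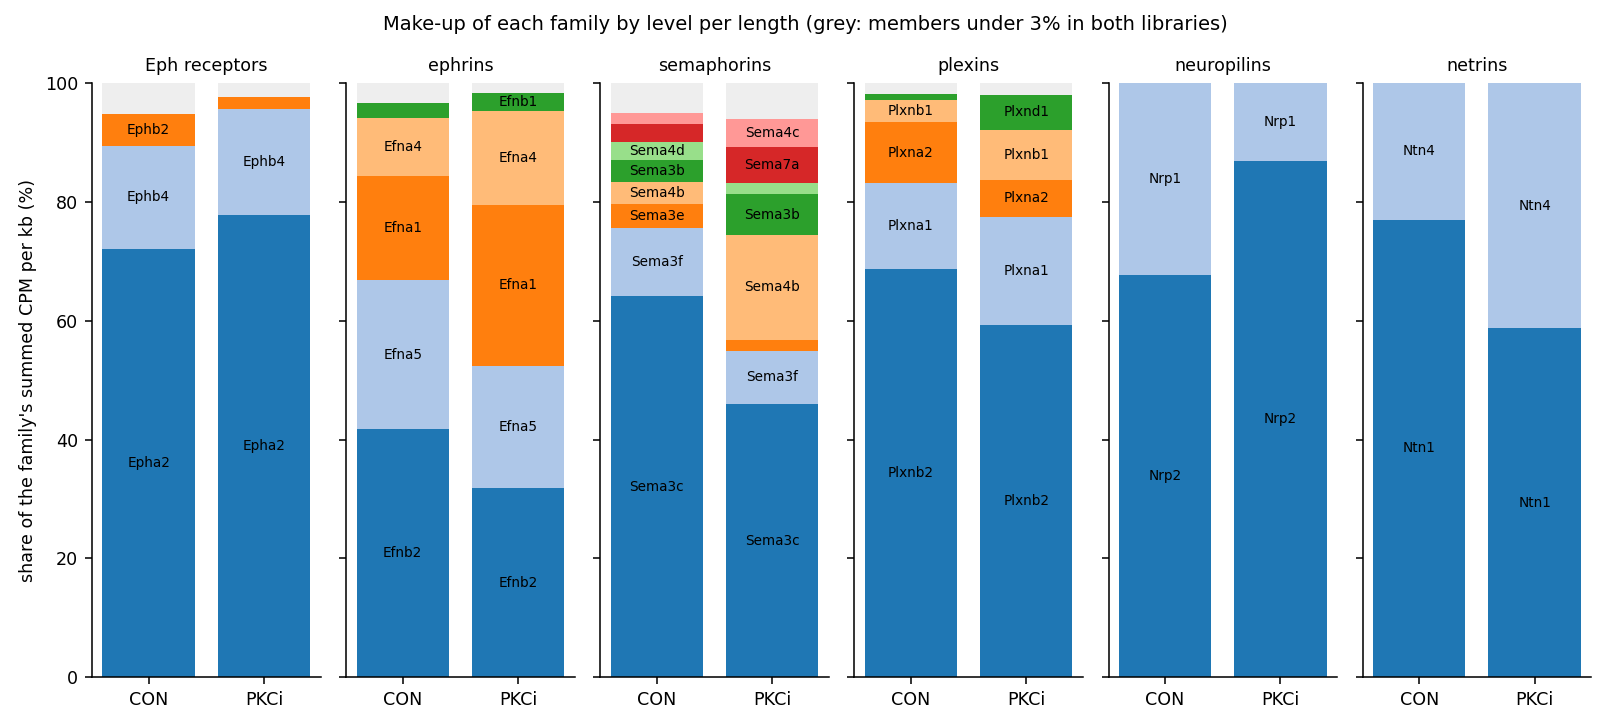
Share of each family's summed level per length (CPM per kb, in percent) given by each gene in the untreated (CON) and PKCi library, 1 stacked bar per library. Segments with under 3% carry no name, and grey stands for genes under 3% in both libraries. Nrp2 gave 67.8% and 86.8% of the neuropilin level, and Sema4b 3.67% and 17.7% of the semaphorin level.

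Set beside each other, known ligand and receptor partners differed in opposite directions in some pairs and in the same direction in others. Plxnd1 was higher and its ligand Sema3e lower, so that Plxnd1 stood at 0.115 times the level of Sema3e per length untreated and 1.89 times with PKCi. Plxnb1 was higher and its ligand Sema4d lower. Sema3a and its receptor subunit Nrp1 were both lower, and Efna1 and its receptor Epha2 both higher. These pairs were chosen after the values were seen, from textbook knowledge of their binding, and were not tested.

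Netrin 1 was lower with PKCi, and Slit2 was expressed in cells with almost no Robo transcript. Ntn1, a secreted netrin, on chromosome 11 (68209364 to 68400823, minus strand), had 4440 and 2116 counts (276 and 132 CPM), 2.10-fold lower (95% interval 1.99 to 2.21). Ntn4, a netrin that binds laminin, had 788 and 887 counts (1.13-fold higher, 95% interval 1.02 to 1.24). Ntn1 gave 77.0% of the netrin level per length untreated and 58.7% with PKCi. Among netrin receptors outside the 63 genes, Dcc had no count in either library, and the dependence receptor gene Unc5c had 2215 and 681 counts (3.25-fold lower, 95% interval 2.98 to 3.55). Unc5b was at 114.6 and 115.8 CPM (ratio 1.01, 95% interval 0.947 to 1.08), and neogenin (Neo1) at 199.4 and 256 CPM (1.28-fold higher, 95% interval 1.23 to 1.35). Ntn1 and Unc5c were thus the 2 genes of this ligand and receptor system that were at least 2-fold lower.

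Slit2, on chromosome 5 (47983138 to 48307733, plus strand), had 2766 counts untreated and 6902 with PKCi, or 172 and 429 CPM. It was 2.50-fold higher (95% interval 2.39 to 2.61) and gave nearly all Slit counts. Over the 4 Robo genes, Robo1 had 1 and 2 counts, Robo3 had 0 and 1, and Robo2 and Robo4 had none. Measured Robo receptors were therefore 0 of 4, in each library.

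Genes of the signalling pathways behind these receptors, listed by textbook role with earlier results of these data known, stood on both sides of equality. Of 108 listed genes 86 were measured, and 5 were higher and 7 lower by 2-fold or more. That is 14.0%, near the 11.7% of all measured genes, with a median log2 ratio of 0.10. Among 8 measured guidance receptors and ligands outside the name rule, Unc5c and the hepatocyte growth factor receptor gene Met, a partner of class B plexins, were lower. Met had 4196 and 1722 counts (2.43-fold lower, 95% interval 2.30 to 2.58). Flrt3, an adhesion protein that binds Unc5 and Robo receptors, had 235 and 561 counts and was 2.39-fold higher (95% interval 2.05 to 2.80).

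Of 26 measured Eph and ephrin signalling genes, 21 were above 0 and 5 below, beside 6040 and 6233 of all measured genes. Their median was 0.28, and 1 was past 2-fold. That gene was Vav3, a guanine nucleotide exchange factor, with 26 and 105 counts (4.04-fold higher, 95% interval 2.61 to 6.47). Src, a kinase recruited by Eph receptors and ephrins, was at 112.9 and 213 CPM (1.89-fold higher). Of 25 measured semaphorin and plexin signalling genes, 14 were above 0 and 11 below, beside the same 6040 and 6233, with a median of 0.09. In this list 3 genes (12%) were past 2-fold, near the 11.7% of all measured genes. Rras, a GTPase that plexins switch off, had 499 and 1463 counts (2.94-fold higher, 95% interval 2.65 to 3.26). Its relative Mras had 990 and 402 counts (2.46-fold lower, 95% interval 2.19 to 2.77), and Rnd3, an antagonist of RhoA signalling, 790 and 315 counts (2.50-fold lower, 95% interval 2.20 to 2.86). Small GTPases of this list thus stood at both ends.

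Of 22 measured netrin and slit signalling genes, 11 were above 0 and 11 below, beside 6040 and 6233 of all measured genes. Their median was 0.02. The actin-binding LIM protein genes Ablim1 (478 and 132 counts, 3.62-fold lower, 95% interval 2.98 to 4.42) and Ablim3 (97 and 40 counts) were lower. Pak3, a kinase downstream of Rac and Cdc42, had 72 and 15 counts (4.79-fold lower, 95% interval 2.72 to 9.01), while its relative Pak1 was at 35.1 and 69.9 CPM. Sos2, a Ras and Rac exchange factor, had 562 and 1458 counts (2.60-fold higher, 95% interval 2.35 to 2.87). Of the 5 shared effector genes, Rhoa was at 283 and 597 CPM (2.11-fold higher, 95% interval 2.03 to 2.18), and the other four were under 2-fold.

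**Figure D4:**
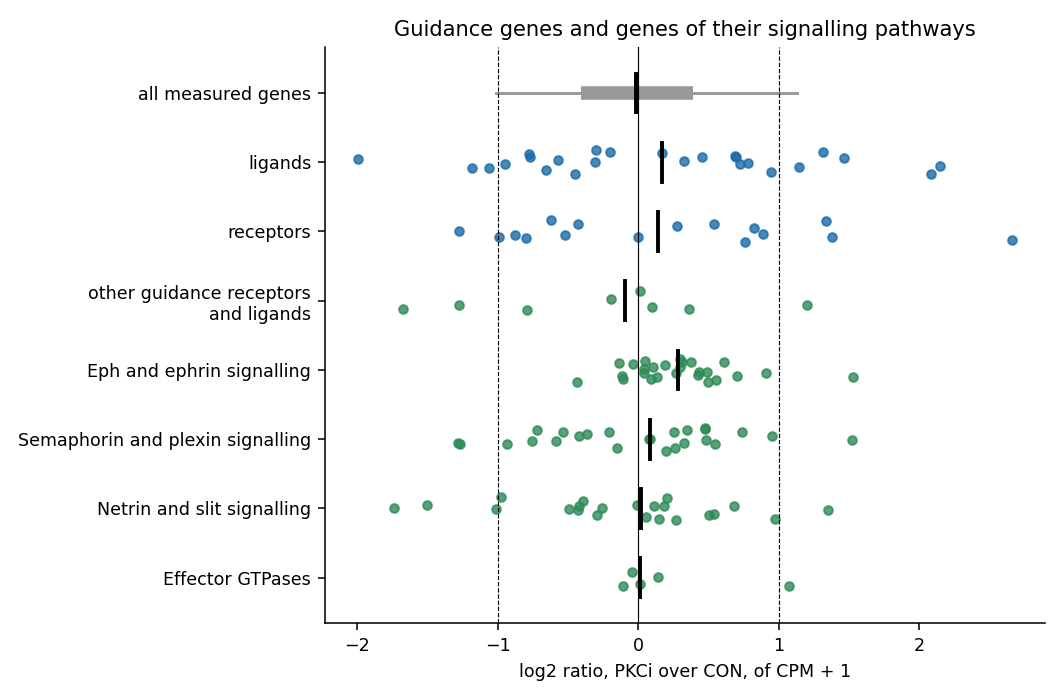
Log2 ratio (PKCi over CON, of CPM + 1) of each measured gene among guidance ligands, guidance receptors and the 5 signalling lists, with 1 library per group and the median of each group as a black bar. For all 12273 measured genes the thick bar spans the quartiles and the thin line the 5th to 95th percentile. The 25 ligands and 16 receptors reach from Sema3a at the lower end to Plxnd1, at 2.66, at the upper end, and the medians of the signalling lists lie between −0.09 and 0.28.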

How the data were processed

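RNA sequencing of 2 mouse cell cultures gave 1 table. The authors deposited whole-number counts per gene for both libraries, with gene positions and listed lengths per the file headers; the table is named for FPKM, but its values are whole and the columns sum to different totals, so they were used as raw counts. HISAT2 (version 2.0.5) and the builds GRCm38 and mm10 stand in the submitters' processing notes. The program that made the counts, its strand setting and its annotation release are not stated in those sources. Per the labels' descriptions the libraries were stranded poly(A) libraries, while the extraction protocol in the same labels describes retinas and another kit. Per-sample columns left unassigned numbered 0.

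Each count was scaled to 1000000 counts per library (CPM), and a gene counted as measured if either library reached 1 CPM. Log2 ratios are of PKCi over CON after adding 1 CPM to both, and folds are plain ratios of CPM with exact conditional binomial (Clopper-Pearson) 95% intervals. A count of 0 was kept as 0 in these log2 ratios and intervals. A floor of 3 counts replaced it in the folds of Sema3g and Slit1 and in the alternative with no pseudocount. The same floor gave the upper limits for counts of 0. Levels of different genes were compared as CPM per kilobase of listed length. These comparisons and the family shares depend on the listed lengths, which may differ from those of the transcripts present. With 1 library per group no test was possible. The members and lists were chosen with earlier results of these data known, and genes 2-fold higher or lower, the highest per length and those nearest a ratio of 1 are named in each family. Of the 41 measured guidance genes, 24 overlap another annotated gene, and in 1, Efna3, that gene had at least 10% of its counts. The procedure was tested on data simulated with counting error only, which cannot show how differences between cultures affect the ratios. Alternatives were TMM (edgeR 4.0.16), DESeq2 1.42.0 size factors, TPM, other pseudocounts and other filters. Python 3.11.15 and scipy 1.17.1 were used.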

Additional observations from a re-analysis of the deposited data

How the results depend on the processing

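The 8 guidance genes that were at least 2-fold higher stayed at 8 under TMM, DESeq2 and TPM scaling, pseudocounts of 0.5 and 2 CPM, no filter and a filter of 5 CPM. The lower ones numbered 4, or 5 with TMM scaling and with a pseudocount of 0.5, where Ephb3 joined. With no pseudocount, an alternative chosen after seeing the data, 9 were higher and 7 lower, since Sema4a, Ephb3, Sema3d and Efnb3 joined. The guidance median ranged from 0.00 with no filter, where 63 genes count, to 0.28 with a filter of 5 CPM. Over all genes the higher and lower counts were 802 and 630 of 12273 measured genes. They were 1398 and 985 of 14174 with TPM scaling, and 1223 and 906 of 12273 with no pseudocount. With TPM scaling, 30.0% of 40 guidance genes and 16.8% of all genes were past 2-fold. The main setting gave 29.3% and 11.7%. Scaling moved the median of all genes by under 0.1 on the log2 scale. Plxnb2, at a ratio of 1.00, changed sign with TMM and DESeq2 scaling, and no gene past 2-fold changed direction under the settings tried. With TPM scaling, where 1 TPM was added in place of 1 CPM, the log2 ratio of Sema3a was −1.41. It was the one guidance gene of 41 whose value moved by more than its counting error. On the CPM scale its log2 ratio also varied with the pseudocount, at −2.14 with 0.5 CPM and −1.77 with 2 CPM. The parts of scaling and pseudocount in the move were not tested separately. For genes with fewer than 100 counts, such as Sema6c, Efnb3, Sema4a and Plxnc1, depth limits the ratio. Leaving out a replicate was not possible with 1 library per group, and no value here measures differences between cultures. No paired analysis was possible because each group has 1 library.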
